A study of Saccharomyces cerevisiae with 18 samples.

Results

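Gene expression was compared between the yeast strains LP104-17 and LP085-Vc after 6 h of growth, with the 3 libraries labelled LP104-17 at 6 h set against the 3 labelled LP085-Vc at 6 h. These are 6 of the 18 RNA-seq libraries of a series on Saccharomyces cerevisiae strains that make diosgenin, a plant steroidal sapogenin. Both strains have the laboratory background BY4742, which is known to carry deletions at HIS3, LEU2, LYS2 and URA3. The labels give no genotype of either strain, no list of introduced genes and no record of how one strain was made from the other. Flasks held 15 mL of SD medium with 2% (w/v) glucose, started at an OD600 of 0.1 from an overnight culture, and were shaken at 250 rpm and 30 °C. Strain and time are thus the labelled differences, and another strain, LP118, and the harvests at 24 h enter here through the shared estimate of the spread and, for 24 h, through 1 comparison over time. Whether the 3 libraries per strain are independent cultures is not recorded. The p-values thus reflect the scatter among libraries within groups, pooled over all 18, and this scatter is possibly technical.

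Several of the gene groups described below have well known control in yeast. The lysine pathway is controlled by the activator Lys14, which acts when the intermediate aminoadipate semialdehyde is present, and the first step is inhibited by lysine. Sulfate is reduced and built into homocysteine by enzymes whose genes are switched on by Met4 with its DNA-binding partners Cbf1, Met31 and Met32 when sulfur amino acids run low. Purine synthesis genes are activated by Bas1 with Pho2 when purine intermediates accumulate, and the general stress genes are activated by Msn2 and Msn4 through the element CCCCT. Diosgenin itself is built on a sterol skeleton, so the host's mevalonate and ergosterol pathways are its source of precursors.

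Total counts per library, in units of 1e6, were 5.34, 7.23 and 6.55 in LP104-17 and 6.29, 6.63 and 7.55 in LP085-Vc for replicates 1, 2 and 3. All values below are counts per 1e6 counts (CPM) of libraries scaled by TMM, in that order of replicates, and fold changes are log2 fold changes, LP104-17 over LP085-Vc, with their standard error (SE). The libraries of each strain stood apart from each other in 1 respect, the level of long against short genes. Across the 6131 tested genes, the deviation of a library from the mean of the 6 rose with gene length in LP104-17 replicates 1 and 3 (Spearman rho 0.415 and 0.486) and in LP085-Vc replicate 1 (0.326). It fell with gene length in LP104-17 replicate 2 (-0.433) and in LP085-Vc replicates 2 and 3 (-0.525 and -0.268). The labels and files hold nothing that accounts for this split, and its source was not tested. The biological coefficient of variation within a group was 15.4% in LP104-17 and 12.7% in LP085-Vc at 6 h, the 2 highest of the 6 groups of the series, against 11.2% over all 18 libraries. Where they differ, counts of calls in the gene lists are therefore given both from the fit of all 18 libraries and from a fit of the 6 libraries alone. Counts for the lists most open to this trend are also given with the length trend removed from every library. The libraries are bulk RNA, in which fewer cells with a transcript and less of it per cell cannot be told apart.

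**Figure D1:**
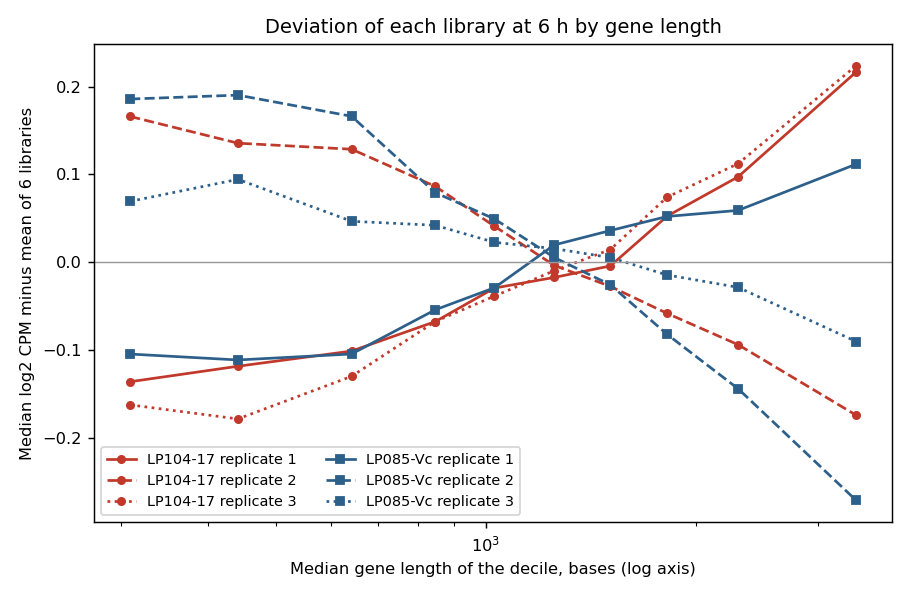
Median deviation of each library at 6 h from the mean of the 6 libraries (y axis, log2 CPM) over 10 classes of gene length (x axis, bases, log axis). Red lines with circles are the 3 LP104-17 libraries and blue lines with squares the 3 LP085-Vc libraries. In the longest class the medians were 0.22, -0.17 and 0.22 in LP104-17 replicates 1, 2 and 3, and 0.11, -0.27 and -0.09 in LP085-Vc replicates 1, 2 and 3, so each strain has libraries on both sides of 0.

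Of 6131 genes tested with edgeR's quasi-likelihood test, 708 (11.5%) passed the threshold, an adjusted p (Benjamini-Hochberg) below 0.05, and are referred to as called. Of these, 355 (5.79% of tested genes) were higher in LP104-17 and 353 (5.76%) were lower. Most differences were small: the median absolute log2 fold change of called genes was 0.516, 47.3% were under 0.5, and 26 genes rose and 47 fell by 2-fold or more. The 6-library fit called 341 genes (5.56%), 160 higher and 181 lower, and 337 of them were called in the same direction in both fits. With the length trend removed, 994 genes were called, 482 higher and 512 lower, and 687 of the 708 kept their call and direction. On the deposited FPKM values the split leaned to higher calls, with 401 higher and 262 lower on log2(FPKM + 1), and 402 higher and 260 lower on log2(FPKM + 0.1). The median log2 fold change of all tested genes was 0.0032. Counts of calls in the gene lists below are to be read beside the counts over all 6131 tested genes given here, fit by fit.

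**Figure D2:**
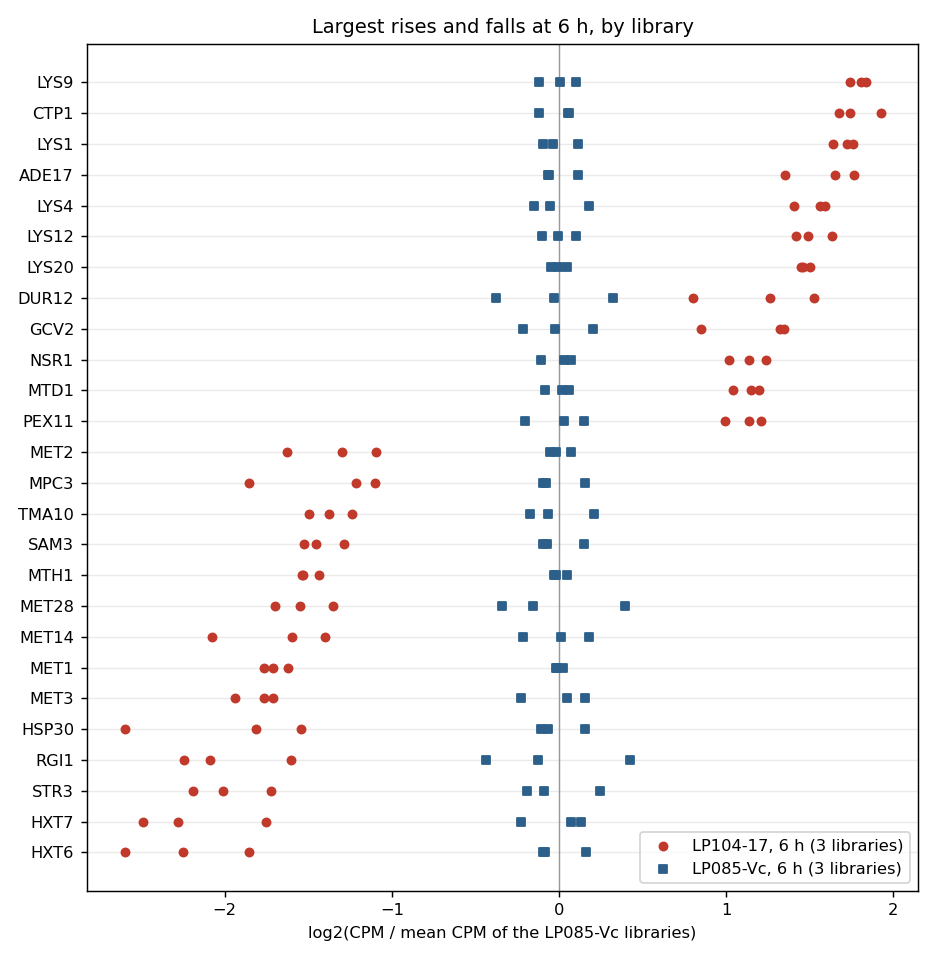
Level of 26 genes in each library at 6 h, as log2 of CPM over the mean CPM of the LP085-Vc libraries (x axis). Red circles are the 3 LP104-17 libraries and blue squares the 3 LP085-Vc libraries. Shown are the called genes that rose or fell most, of those that have a gene name, reach 10 CPM in either strain and do not overlap between strains. The markers LEU2, TRP1 and URA3 also meet this rule, with larger differences, and are not drawn because 1 strain had 3 counts or fewer of each. Of the genes drawn, LYS9 is at the top (log2 fold change 1.80) and HXT6 at the bottom (-2.21), and for every gene drawn the libraries of the strains do not overlap, which the choice of genes fixes.

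The largest differences were in the counts of 3 auxotrophic marker genes, which are used for genetic selection. The coordinates given are those of the reference genome, and counts do not show where in a strain's genome a copy lies. TRP1 is not among the deletions named above for the background. LEU2, isopropylmalate dehydrogenase of leucine synthesis (chrIII:91324-92418, plus strand), had 30.5, 30.4 and 29.7 CPM in LP104-17, against 0 counts in each LP085-Vc library. It was at least 68.5-fold higher in LP104-17, taking a floor of 3 counts in each LP085-Vc library. TRP1, phosphoribosylanthranilate isomerase of tryptophan synthesis (chrIV:461842-462516, plus strand), had 1225 counts in LP104-17 and 3 in LP085-Vc, a ratio of 424 (95% counting interval 145 to 2059). URA3, orotidine phosphate decarboxylase of uracil synthesis (chrV:116167-116970, plus strand), had 1 count in LP104-17, against 4169 in LP085-Vc, and the ratio of LP085-Vc to LP104-17 was 4015 (720 to 158627). HIS3, which both strains transcribe, had 323, 279 and 290.0 CPM in LP104-17, against 267, 219 and 220.3 CPM in LP085-Vc (log2 fold change 0.34 ± 0.09, adjusted p = 0.025), and the 6-library fit did not call it. LYS2, the aminoadipate reductase gene that the background is known to lack, was low in both strains but not at 0. It had 17.7, 9.37 and 11.8 CPM in LP104-17, against 6.25, 5.72 and 7.91 CPM in LP085-Vc, and the source of these reads was not tested. LYS2 was not called (log2 fold change 0.94 ± 0.32, adjusted p = 0.064). Its libraries did not overlap between strains, which held for 24.0% of all tested genes and 94.2% of called genes. Statements below that strains did not overlap are to be read beside these shares.

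Lysine synthesis was the pathway with the highest median fold change among the 52 gene lists, as 6 of its 9 tested genes rose and 0 fell. The median log2 fold change of the 9 genes was 1.47, beside 0.0032 over all tested genes. The same count, 6 higher and 0 lower, came from the 6-library fit, with the length trend removed and with a term for the length class of the library. Summed over the 9 genes, the level was 9189, 9827 and 9643 CPM in LP104-17, against 3531, 3368 and 3295 CPM in LP085-Vc. The summed level of every LP104-17 library was thus above that of every LP085-Vc library, and the libraries of a strain lay close together whatever their length class.

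LYS9, saccharopine reductase (chrXIV:714048-715388, minus strand), carries out the next to last step, and it is shown here with the bases before its start codon because it had the smallest adjusted p in the lysine list and its window holds the motif. The sequence is from the RefSeq genome of build R64 (chrXIV:715389-715688, minus strand), read 5′ to 3′ on the gene's strand and ending at the base before the start codon. Capitals mark the motif TCCNNNGGA, the site of Lys14, searched on both strands.
LYS9: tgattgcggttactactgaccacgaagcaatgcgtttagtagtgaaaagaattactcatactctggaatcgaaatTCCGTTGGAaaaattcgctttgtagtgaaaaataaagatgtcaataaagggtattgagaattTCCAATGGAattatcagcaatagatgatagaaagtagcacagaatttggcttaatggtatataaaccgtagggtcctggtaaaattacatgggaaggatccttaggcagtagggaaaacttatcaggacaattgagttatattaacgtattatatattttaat
The motif starts 225 and 163 bases before the start codon. It was present in the 300 bases before the start codon of 4 of the 9 genes of the lysine list, and in 189 of 6001 such windows of the genome (3.15%). A match is a description of the letters and not evidence of binding.

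LYS9 had 2958, 3158 and 3089 CPM in LP104-17, against 949, 814 and 888 CPM in LP085-Vc (log2 fold change 1.80 ± 0.08, adjusted p = 1.5e-11). LYS20 and LYS21, the homocitrate synthases that begin the pathway, differed in size of change. LYS20 had 1183, 1229 and 1191 CPM in LP104-17, against 447, 432 and 419 CPM in LP085-Vc (log2 fold change 1.47 ± 0.07). LYS21 had 757, 792 and 885 CPM in LP104-17, against 499, 463 and 409 CPM in LP085-Vc (log2 fold change 0.83 ± 0.10). Of the 31-base windows of these paralogs, 0.465 of LYS20's and 0.452 of LYS21's recur in the genome, so reads could be shared between them and the split is uncertain. LYS4, homoaconitase, had 702, 631 and 717 CPM in LP104-17, against 269.5, 229 and 215 CPM in LP085-Vc (log2 fold change 1.52 ± 0.08). All 3 of these genes lay higher in every LP104-17 library than in any LP085-Vc library. LYS12, homoisocitrate dehydrogenase, had 2178, 2523 and 2281 CPM in LP104-17, against 757, 872 and 810.2 CPM in LP085-Vc (log2 fold change 1.52 ± 0.09). LYS1, saccharopine dehydrogenase of the last step, had 1175, 1278 and 1245 CPM in LP104-17, against 409, 368 and 354 CPM in LP085-Vc (log2 fold change 1.71 ± 0.10). Both genes were again separated by strain with no overlap. The 3 members that did not pass were LYS2, LYS5, which activates the Lys2 protein (log2 fold change -0.03 ± 0.14), and LYS14, the pathway's activator, with 173, 156 and 180.4 CPM in LP104-17, against 149, 133 and 147 CPM in LP085-Vc (log2 fold change 0.25 ± 0.09, adjusted p = 0.079). LYP1, the lysine permease, was also higher in LP104-17 (log2 fold change 0.59 ± 0.09, adjusted p = 8.8e-05).

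**Figure D3:**
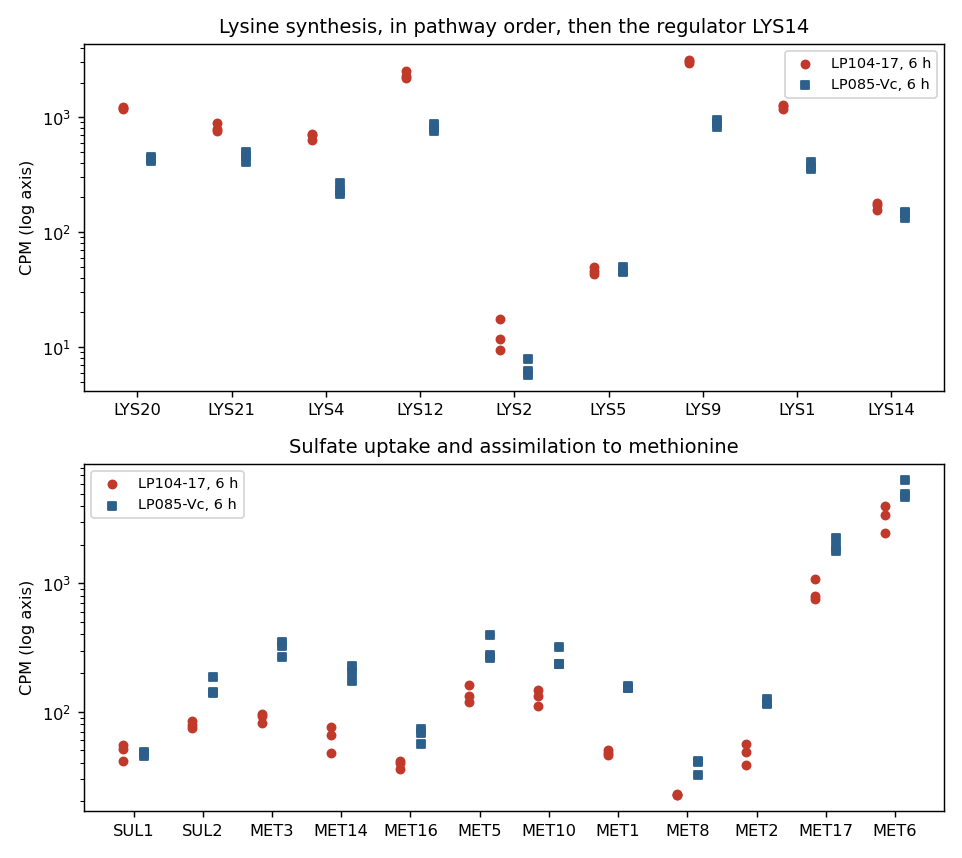
CPM of genes of lysine synthesis (top) and of sulfate uptake and assimilation to methionine (bottom) in each library at 6 h (y axis, log axis). Red circles are the 3 LP104-17 libraries and blue squares, drawn to their right, the 3 LP085-Vc libraries. LYS9 lies between 2958 and 3158 CPM in LP104-17 and between 814 and 949 CPM in LP085-Vc, and MET3 between 81.7 and 95.8 CPM in LP104-17 and between 268 and 348 CPM in LP085-Vc.

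Sulfate uptake and assimilation moved the other way, with 0 of 10 tested genes higher and 8 lower in LP104-17, and a median log2 fold change of -0.99. The 6-library fit and the fit with the length trend removed each also gave 0 higher and 8 lower. In the list for methionine, cysteine and S-adenosylmethionine (SAM), 1 of 14 tested genes rose and 9 fell, with a median of -0.56, and the 6-library fit called 0 higher and 7 lower. Among transporters and salvage genes for sulfur compounds, 0 of 11 rose and 6 fell, and the 6-library fit called 5 of them lower. These shares of lower genes stand beside 5.76% of all tested genes.

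MET1 and STR3 are shown with the 300 bases before their start codons because each had the smallest adjusted p in its list among the called genes whose window holds a motif of the Met4 partners. MET1 (chrXI:571312-571611, plus strand for the window) encodes the methyltransferase that makes siroheme, the cofactor of sulfite reductase. Capitals mark CACGTG, the site of Cbf1. STR3 (chrVII:156013-156312, minus strand for the window) encodes a cystathionine beta-lyase, which turns cystathionine into homocysteine. Capitals there mark TGTGGC, the core of the Met31 and Met32 site, on either strand. Both are from the RefSeq genome of build R64, 5′ to 3′ on the gene's strand.
MET1: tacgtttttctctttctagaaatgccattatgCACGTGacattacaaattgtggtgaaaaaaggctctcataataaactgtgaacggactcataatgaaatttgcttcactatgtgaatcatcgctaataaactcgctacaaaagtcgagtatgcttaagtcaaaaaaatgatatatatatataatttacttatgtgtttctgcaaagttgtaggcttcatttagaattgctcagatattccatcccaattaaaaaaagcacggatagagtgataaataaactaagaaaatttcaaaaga
STR3: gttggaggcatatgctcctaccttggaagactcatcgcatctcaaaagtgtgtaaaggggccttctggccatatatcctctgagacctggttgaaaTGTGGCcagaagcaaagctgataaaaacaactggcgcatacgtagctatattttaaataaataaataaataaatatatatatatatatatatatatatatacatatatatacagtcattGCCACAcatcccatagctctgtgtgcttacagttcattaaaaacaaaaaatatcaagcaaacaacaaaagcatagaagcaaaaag
CACGTG starts 268 bases before the start codon of MET1, and TGTGGC or its complement starts 204 and 85 bases before that of STR3. CACGTG was present before 6 of the 10 sulfate genes and 3 of the 14 genes of the methionine list, beside 214 of 6001 windows of the genome (3.57%). TGTGGC was present before 7 of the 10 and 6 of the 14, beside 486 of 6001 (8.10%).

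Uptake differed between the 2 sulfate permeases. SUL2 had 79.4, 75.0 and 83.9 CPM in LP104-17, against 186, 142 and 141 CPM in LP085-Vc (log2 fold change -0.97 ± 0.14, adjusted p = 6.0e-05), and SUL1 had 51.6, 41.0 and 55.3 CPM in LP104-17, against 48.6, 45.2 and 47.4 CPM in LP085-Vc (log2 fold change 0.06 ± 0.12, adjusted p = 0.81). The strains did not overlap for SUL2 and overlapped for SUL1. MET3, ATP sulfurylase, which activates sulfate, had 81.7, 95.8 and 92.2 CPM in LP104-17, against 348, 323 and 268 CPM in LP085-Vc (log2 fold change -1.80 ± 0.10, adjusted p = 4.4e-10). MET14, adenylylsulfate kinase, had 47.6, 76.2 and 66.4 CPM in LP104-17, against 173, 228 and 202 CPM in LP085-Vc (log2 fold change -1.66 ± 0.15). MET16, which reduces the product of MET14, fell less, with 35.9, 41.5 and 39.9 CPM in LP104-17, against 55.6, 73.0 and 67.7 CPM in LP085-Vc (log2 fold change -0.74 ± 0.13). Both subunits of sulfite reductase also fell. MET5 had 133, 118 and 162 CPM in LP104-17, against 394, 275 and 264 CPM in LP085-Vc (log2 fold change -1.17 ± 0.15), and MET10 had 133, 112 and 147 CPM in LP104-17, against 318, 235 and 234 CPM in LP085-Vc (log2 fold change -1.003 ± 0.122). MET1 itself had 45.6, 47.3 and 50.4 CPM in LP104-17, against 153, 158 and 154 CPM in LP085-Vc (log2 fold change -1.70 ± 0.08, adjusted p = 1.8e-11), and MET8, which completes siroheme, had 22.4, 22.8 and 22.5 CPM in LP104-17, against 40.9, 40.8 and 32.0 CPM in LP085-Vc (log2 fold change -0.75 ± 0.13). MET22, a phosphatase that clears a by-product of the pathway, was not called (log2 fold change -0.31 ± 0.14, adjusted p = 0.17).

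In the steps after sulfide, STR3 had 55.9, 63.5 and 77.5 CPM in LP104-17, against 303, 240.1 and 224 CPM in LP085-Vc (log2 fold change -1.96 ± 0.13, adjusted p = 4.5e-09). MET2, homoserine acetyltransferase, had 55.6, 38.4 and 48.3 CPM in LP104-17, against 117, 125 and 114 CPM in LP085-Vc (log2 fold change -1.33 ± 0.11). MET17, which joins sulfide to acetylhomoserine, had 761, 802 and 1083 CPM in LP104-17, against 2256, 1939 and 1780.3 CPM in LP085-Vc (log2 fold change -1.17 ± 0.13), and it overlaps the annotated reading frame YLR302C, whose reads could not be told apart. The strains did not overlap for any of the 3. The methionine synthase gene MET6 had 3405, 2452 and 3996 CPM in LP104-17, against 6404, 4974 and 4675 CPM in LP085-Vc (log2 fold change -0.70 ± 0.14), and the 6-library fit did not call it. Of the SAM synthetases, SAM1 and SAM2 both fell, with log2 fold changes of -1.004 ± 0.095 and -0.44 ± 0.08. The transsulfuration genes CYS4 (-0.61 ± 0.09) and CYS3 (-0.52 ± 0.15) also fell, and the 6-library fit called CYS4 and not CYS3. The 1 higher gene was SAM4, a homocysteine methyltransferase that uses SAM (log2 fold change 0.39 ± 0.11, adjusted p = 0.03), and the 6-library fit did not call it either. Permeases of sulfur compounds fell, among them SAM3 for SAM, with 206, 216 and 242 CPM in LP104-17, against 658, 556 and 564 CPM in LP085-Vc (log2 fold change -1.42 ± 0.11), MMP1 for S-methylmethionine (-1.28 ± 0.12) and MUP1 for methionine (-1.11 ± 0.08). Of the 6 regulators, MET28 (8.66, 11.0 and 9.59 CPM in LP104-17, against 22.2, 36.9 and 25.2 CPM in LP085-Vc, log2 fold change -1.52 ± 0.26) and MET32 (-0.92 ± 0.14) fell, while MET4 (0.11 ± 0.10), CBF1 (0.05 ± 0.08), MET31 (-0.15 ± 0.13) and MET30 (-0.28 ± 0.12) were not called.

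Purine synthesis rose in part: 9 of 17 tested genes were higher and 1 was lower, and the 6-library fit called 6 higher and 1 lower. The list's median log2 fold change was 0.31. ADE17, which carries out the last 2 steps to inosine monophosphate, is shown with the 300 bases before its start codon (chrXIII:509281-509580, minus strand, RefSeq genome of build R64), because it had the smallest adjusted p in the list. Capitals mark TGACTC, the site of Bas1, which is contained in the Gcn4 site TGACTCA.
ADE17: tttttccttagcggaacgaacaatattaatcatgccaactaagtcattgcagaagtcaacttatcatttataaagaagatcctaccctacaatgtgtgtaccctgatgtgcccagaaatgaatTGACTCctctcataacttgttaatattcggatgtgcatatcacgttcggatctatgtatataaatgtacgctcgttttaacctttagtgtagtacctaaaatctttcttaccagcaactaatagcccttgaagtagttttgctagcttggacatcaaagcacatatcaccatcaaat
TGACTC starts 177 bases before the start codon of ADE17. It was present, on either strand, before 10 of the 17 purine genes and in 466 of 6001 windows of the genome (7.77%).

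ADE17 had 443, 333 and 409.7 CPM in LP104-17, against 141, 125 and 125 CPM in LP085-Vc (log2 fold change 1.60 ± 0.11, adjusted p = 2.5e-09). Its paralog ADE16, which carries out the same steps, had 629, 597 and 644 CPM in LP104-17, against 697, 645 and 647 CPM in LP085-Vc and was not called (log2 fold change -0.09 ± 0.07, adjusted p = 0.51). Earlier steps rose by smaller amounts: ADE4, the amidotransferase that starts the pathway, had 159, 147 and 173 CPM in LP104-17, against 89.6, 85.2 and 81.0 CPM in LP085-Vc (log2 fold change 0.91 ± 0.09). ADE1, ADE6, ADE57, ADE2, ADE13 and ADE8 had log2 fold changes of 0.92, 0.92, 0.91, 0.80, 0.73 and 0.31, and the 6-library fit did not call ADE6 and ADE8. On the branch to guanine nucleotides, GUA1 rose by 0.45 ± 0.10 and was not called in the 6-library fit, and IMD2, an inosine monophosphate dehydrogenase, was the 1 gene that fell, with 60.6, 74.2 and 74.0 CPM in LP104-17, against 159, 156 and 150.2 CPM in LP085-Vc (log2 fold change -1.15 ± 0.11). Of the windows of IMD2, 0.498 recur in the genome, so its reads could be shared with its paralogs. BAS1 (0.27 ± 0.15) and PHO2 (-0.11 ± 0.11) were not called.

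One-carbon genes that supply purine synthesis also rose: 4 of 13 tested genes of folate and glycine metabolism were higher and 0 lower, in both fits. GCV2, the glycine decarboxylase subunit, had 249, 177 and 245 CPM in LP104-17, against 113, 84.4 and 96.6 CPM in LP085-Vc (log2 fold change 1.19 ± 0.13). GCV2 is 3105 bases long and was lowest in replicate 2 of each strain, and its log2 fold change with the length trend removed was 1.04. MTD1, a methylenetetrahydrofolate dehydrogenase, had 194, 209 and 216 CPM in LP104-17, against 88.6, 95.3 and 98.2 CPM in LP085-Vc (log2 fold change 1.13 ± 0.10). SHM2, the cytosolic serine hydroxymethyltransferase (0.89 ± 0.10), and GCV1 (0.71 ± 0.09) were the other two. The mitochondrial counterpart SHM1 was not called (log2 fold change 0.20 ± 0.08, adjusted p = 0.15). Outside these lists, CTP1, the mitochondrial citrate carrier, had 296, 335 and 283 CPM in LP104-17, against 81.2, 92.0 and 91.6 CPM in LP085-Vc (log2 fold change 1.79 ± 0.11, adjusted p = 1.0e-09), and PEX11, which divides peroxisomes, had 94.4, 99.1 and 85.1 CPM in LP104-17, against 47.5, 43.6 and 37.2 CPM in LP085-Vc (log2 fold change 1.12 ± 0.11). In the tricarboxylic acid cycle, 3 of 18 genes rose, ACO1 (0.67 ± 0.10), PYC2 (0.47 ± 0.13) and IDH1 (0.38 ± 0.09), and 2 fell, MDH1 (-0.53 ± 0.10) and CIT1 (-0.32 ± 0.08). The 6-library fit called ACO1 and IDH1 higher and 0 genes lower. Over all tested genes, 5.79% were higher and 5.76% lower in the 18-library fit.

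Arginine synthesis rose modestly, with 6 of 10 tested genes higher and 0 lower and a median log2 fold change of 0.35, and the 6-library fit called 3 of them. ARG3, ornithine carbamoyltransferase, had 91.1, 100.4 and 101 CPM in LP104-17, against 60.3, 58.1 and 61.5 CPM in LP085-Vc (log2 fold change 0.70 ± 0.13), and ARG1, argininosuccinate synthetase, had 981, 1006 and 1031 CPM in LP104-17, against 686, 645 and 611 CPM in LP085-Vc (log2 fold change 0.64 ± 0.08). ARG4, the enzyme after ARG1, was not called and its value was below 0 (log2 fold change -0.23 ± 0.08, adjusted p = 0.062). The Gcn4 site TGACTCA was present before 5 of the 10 arginine genes and 3 of the 9 lysine genes, beside 157 of 6001 windows (2.62%). In the histidine and aromatic list, 6 of 17 tested genes were called higher in the 18-library fit and 0 in the 6-library fit, and their log2 fold changes were at most that of HIS4 (0.38 ± 0.09). In the branched chain list, without LEU2, 3 of 12 rose and 3 fell, against 2 and 3 in the 6-library fit. BAT1, the mitochondrial branched chain aminotransferase, fell by 0.81 on the log2 scale with an SE of 0.10, LEU1 had -0.64 ± 0.09 and the transporter gene OAC1 -0.79 ± 0.09, while BAT2, the cytosolic aminotransferase, rose (0.40 ± 0.09). In pyrimidine synthesis, without URA3, URA1 (0.58 ± 0.10), URA4 (0.58 ± 0.09), URA7 (0.77 ± 0.11), the uridine permease FUI1 (1.01 ± 0.12) and the activator PPR1 (0.53 ± 0.15) rose, and URA8, a paralog of the CTP synthase URA7, fell (-0.76 ± 0.08), and of these the 6-library fit did not call PPR1.

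Genes under nitrogen catabolite repression, which are lowered when preferred nitrogen sources abound, rose in a subset: 6 of 24 tested genes were higher and 0 lower, and the 6-library fit called 6 higher and 0 lower. DUR12, urea amidolyase, had 706, 429 and 590.2 CPM in LP104-17, against 307, 189 and 240.4 CPM in LP085-Vc (log2 fold change 1.23 ± 0.17). In each strain replicate 2 was the lowest library for DUR12, and the gene's length is 5508 bases. With the length trend removed, the log2 fold change of DUR12 was 0.98. The urea permease DUR3 rose by 0.89 ± 0.11. The ammonium permease MEP2 had 698, 675 and 667 CPM in LP104-17, against 381, 296 and 355 CPM in LP085-Vc (log2 fold change 0.98 ± 0.10), and the general amino acid permease GAP1 had 1311, 1097 and 1163 CPM in LP104-17, against 679, 498 and 645 CPM in LP085-Vc (log2 fold change 0.97 ± 0.10). MEP1 (0.40 ± 0.10) and the arginase CAR1 (0.54 ± 0.09) also rose, while the allantoin genes DAL1, DAL2, DAL3, DAL4, DAL5 and DAL7 and the proline genes PUT1, PUT2 and PUT4 were not called. GATAAG, the site of the GATA factors, was present before 14 of the 24 genes and in 880 of 6001 windows (14.7%). Glutamine synthetase GLN1 (0.53 ± 0.06) and asparagine synthetase ASN1 (0.58 ± 0.09) rose as well. In the list for aspartate, serine, proline and glutamate, 5 of 18 tested genes rose and 1 fell, against 2 and 1 in the 6-library fit. Among 14 other amino acid permeases, 3 rose, LYP1, TAT1 (0.52 ± 0.11) and CAN1 (0.39 ± 0.11), and 3 fell, BAP2 (-0.58 ± 0.09), AGP2 (-0.55 ± 0.13) and BAP3 (-0.46 ± 0.09), of which the 6-library fit did not call CAN1 and AGP2.

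Glucose transport and sensing included HXT6, the gene with the largest fall among those drawn by library, with 0 of 18 tested genes higher and 6 lower and 5 of them called in the 6-library fit. HXT6 had 30.3, 23.0 and 18.1 CPM in LP104-17, against 103, 123 and 103 CPM in LP085-Vc (log2 fold change -2.21 ± 0.16, adjusted p = 8.4e-09). HXT7 had 16.2, 23.4 and 14.1 CPM in LP104-17, against 67.4, 83.1 and 86.4 CPM in LP085-Vc (log2 fold change -2.13 ± 0.17). These high-affinity transporters are near copies, with 0.957 of their windows repeated in the genome, so their reads cannot be assigned with certainty to 1 of them. HXT4, another transporter of this group, had 116, 117 and 127 CPM in LP104-17, against 238, 253 and 223 CPM in LP085-Vc (log2 fold change -0.99 ± 0.10). MTH1, a repressor of transporter genes at low glucose, had 72.5, 67.6 and 67.7 CPM in LP104-17, against 194, 202 and 192 CPM in LP085-Vc (log2 fold change -1.50 ± 0.09), and the glucose repressor gene MIG1 fell by 0.57 on the log2 scale. The low-affinity transporter HXT1, which is induced at high glucose, was not called (log2 fold change 0.11 ± 0.11, adjusted p = 0.62), and HXT3 fell slightly (-0.29 ± 0.08, not called in the 6-library fit). MPC3, a subunit of the mitochondrial pyruvate carrier, had 10.8, 16.9 and 18.3 CPM in LP104-17, against 36.7, 43.6 and 37.1 CPM in LP085-Vc (log2 fold change -1.34 ± 0.16), and RGI1, a gene of respiratory growth, had 64.6, 90.5 and 58.0 CPM in LP104-17, against 203, 369 and 252 CPM in LP085-Vc (log2 fold change -1.95 ± 0.21). In glycolysis 5 of 21 genes fell and 0 rose, with 4 lower in the 6-library fit and 9 with the length trend removed, among them the glucose-repressed hexokinase HXK1 (-1.21 ± 0.12) and TDH1 (-0.90 ± 0.10), an isoform of glyceraldehyde phosphate dehydrogenase.

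General stress genes were lower in LP104-17, with 19 of 30 tested genes lower and 0 higher and a median log2 fold change of -0.54, and 17 of 30 lower in the 6-library fit. HSP30, a stress protein of the plasma membrane, had 138, 166 and 79.9 CPM in LP104-17, against 463, 540.5 and 449.8 CPM in LP085-Vc (log2 fold change -1.92 ± 0.17, adjusted p = 1.3e-07). HSP26, a small heat shock protein, had 526, 515 and 495 CPM in LP104-17, against 1060.1, 1212 and 1151 CPM in LP085-Vc (log2 fold change -1.16 ± 0.09), and SPI1, a cell wall protein, had 404, 414 and 410.0 CPM in LP104-17, against 817, 924 and 835 CPM in LP085-Vc (log2 fold change -1.07 ± 0.09). HSP12 (-0.59 ± 0.11), the catalase CTT1 (-0.42 ± 0.10) and DDR2 (-1.09 ± 0.13) also fell, while YGP1 (-0.16 ± 0.09) and GPD1 (-0.24 ± 0.10) were not called. TMA10, a protein found with ribosomes, had 182, 200.2 and 167 CPM in LP104-17, against 419, 545 and 451 CPM in LP085-Vc (log2 fold change -1.36 ± 0.11). The element CCCCT was present before 23 of the 30 genes and in 1331 of 6001 windows (22.2%). Reserve carbohydrate genes were also lower, with 8 of 17 lower and 0 higher, 6 of them in the 6-library fit, and 13 were called lower with the length trend removed, as with a term for the length class. The glycogen synthase GSY1 had 562, 532 and 601 CPM in LP104-17, against 1179, 960.4 and 956 CPM in LP085-Vc (log2 fold change -0.87 ± 0.09), the branching enzyme GLC3 -0.78 ± 0.09, the phosphoglucomutase PGM2 -0.84 ± 0.08 and the trehalose phosphate synthase TPS1 -0.48 ± 0.09. Of 24 chaperone genes under the heat shock factor Hsf1, 9 fell and 0 rose, led by BTN2 (-1.26 ± 0.11), HSP42 (-0.91 ± 0.11) and SSA4 (-0.66 ± 0.07), and the 6-library fit called 7. The heat shock element GAANNTTC was present before 13 of these 24 and in 692 of 6001 windows (11.5%).

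Iron uptake genes, which Aft1 activates when iron is short, fell in 8 of 24 cases and rose in 0, with 5 called lower in the 6-library fit. FIT2, a cell wall mannoprotein that retains iron siderophores, had 33.4, 38.7 and 43.9 CPM in LP104-17, against 95.3, 103 and 89.1 CPM in LP085-Vc (log2 fold change -1.30 ± 0.10). TIS11, which destabilises mRNAs of iron-using proteins, had 57.7, 57.5 and 68.0 CPM in LP104-17, against 140.2, 121 and 107 CPM in LP085-Vc (log2 fold change -1.01 ± 0.11). The high-affinity ferrous iron transport pair FET3 (-0.66 ± 0.11) and FTR1 (-0.50 ± 0.08) fell, and so did ARN2 (-0.58 ± 0.09), while AFT1 (0.14 ± 0.16) was not called. TGCACCC, an Aft1 site, was present before 13 of the 24 genes and in 80 of 6001 windows (1.33%).

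**Figure D4:**
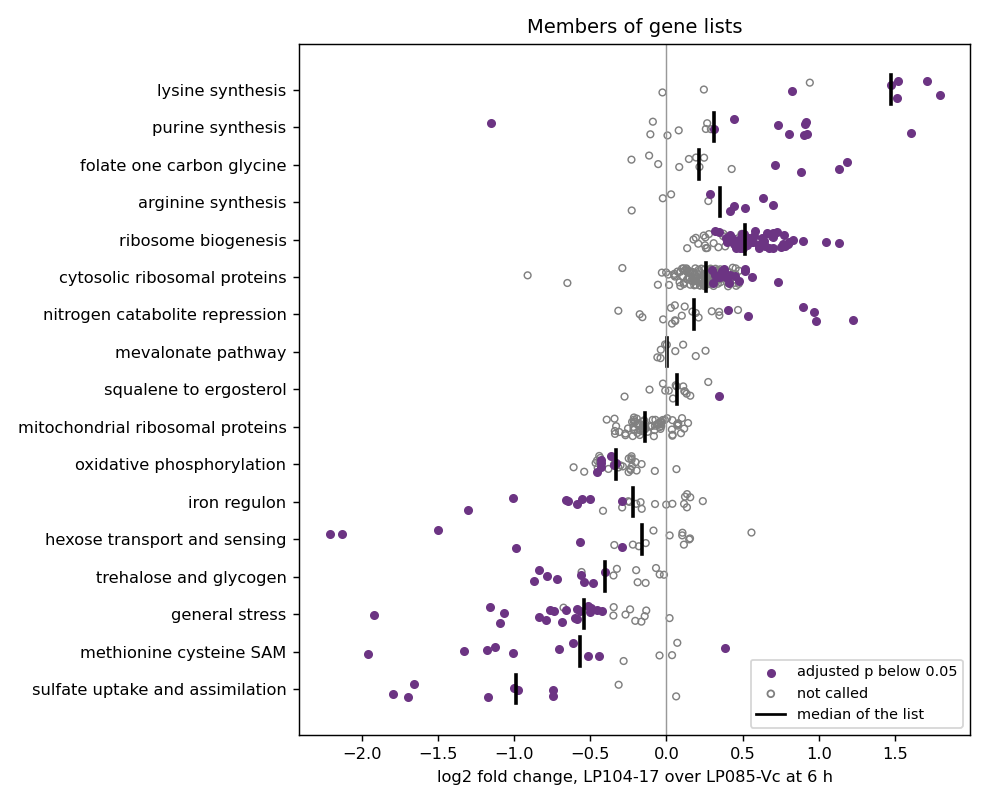
Log2 fold change at 6 h, LP104-17 over LP085-Vc (x axis), of each tested member of 17 gene lists. Filled points had an adjusted p below 0.05, open points were not called, and black bars are list medians. Lysine synthesis (median 1.47) and sulfate uptake and assimilation (median -0.99) stand at the ends, and ribosome biogenesis has 52 of 70 members called higher.

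Ribosome biogenesis was the list with the most calls: 52 of 70 tested genes were higher and 0 lower, with a median log2 fold change of 0.51 and a range of 0.14 to 1.13. The 6-library fit called 30 of 70 higher, and 58 were called with the length trend removed. NSR1, a nucleolar protein of ribosomal RNA processing, had 62.1, 57.9 and 53.2 CPM in LP104-17, against 27.6, 24.4 and 26.9 CPM in LP085-Vc (log2 fold change 1.13 ± 0.13). DBP2, an RNA helicase, had 56.6, 49.3 and 41.8 CPM in LP104-17, against 25.6, 26.2 and 19.8 CPM in LP085-Vc (log2 fold change 1.05 ± 0.14), and NOG1, a GTPase of the large subunit, had 102, 87.8 and 97.4 CPM in LP104-17, against 55.4, 56.6 and 57.1 CPM in LP085-Vc (log2 fold change 0.76 ± 0.10). RRP5, a long gene of 5190 bases, had 91.5, 51.4 and 76.7 CPM in LP104-17, against 51.9, 26.8 and 38.9 CPM in LP085-Vc (log2 fold change 0.90 ± 0.20), and the 6-library fit did not call it. The element GATGAG was present before 67 of the 70 genes and in 1148 of 6001 windows (19.1%). Of 20 subunits and factors of RNA polymerases I and III, 10 rose and 0 fell, among them RPC82 (0.73 ± 0.11) and RPA135 (0.58 ± 0.12), with 4 called in the 6-library fit.

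Genes of the cytosolic ribosomal proteins changed their count of calls with the treatment of gene length. Of 137 tested genes, 17 rose and 0 fell, with a median log2 fold change of 0.26 and a median length of 803 bases. Length here is the deposited one, which equals the reference span, introns included, for 5888 of the 6600 genes. The 6-library fit called 9 higher, 59 were called higher with the length trend removed, and 45 with a term for the length class. RPL6B (0.35 ± 0.10) and RPS18A (0.38 ± 0.12) were called in both fits, and RPS28B had the highest value (0.73 ± 0.19, not called in the 6-library fit). Many of these genes are duplicated pairs whose reads could be shared. The count also changed for the short genes of oxidative phosphorylation (median length 454 bases). Of these, 7 of 34 were lower in the 18-library fit, 0 in the 6-library fit and 18 with the length trend removed. The median log2 fold change was -0.33 in the 18-library fit and -0.27 with the trend removed. With 1 library left out at a time, 2 to 19 were called lower. Histone genes (median length 399 bases) had 2 of 10 lower, 1 in the 6-library fit and 7 with the trend removed, with HHT2 called in both fits (-0.51 ± 0.10). Mitochondrial ribosomal protein genes, also short (699 bases), had 0 of 67 called in the 18-library fit, the 6-library fit and with the trend removed. Over all 6131 tested genes, lower calls in these fits were 353, 181 and 512 in that order, and higher calls were 355, 160 and 482.

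The mevalonate and ergosterol pathways supply the precursors of diosgenin, and their counts of calls are read beside the 11.5% of all tested genes called, which these short lists cannot be set apart from. Of the 9 genes of the mevalonate pathway, 0 were called, and 1 with the length trend removed, with a median log2 fold change of 0.0030. HMG1, a reductase of the rate-limiting step, had 101, 117 and 113 CPM in LP104-17, against 109.6, 115 and 119.9 CPM in LP085-Vc (log2 fold change -0.06 ± 0.14, adjusted p = 0.84), and ERG20, farnesyl diphosphate synthase, had 603, 705 and 639.8 CPM in LP104-17, against 663, 678 and 658 CPM in LP085-Vc (log2 fold change -0.04 ± 0.09, adjusted p = 0.86). The strains overlapped for both. From squalene to ergosterol, 1 of 15 genes was called, ERG7, the lanosterol synthase, with 199, 189 and 208 CPM in LP104-17, against 159, 145 and 166 CPM in LP085-Vc (log2 fold change 0.35 ± 0.09, adjusted p = 0.015), and the 6-library fit called 0. ERG1, squalene epoxidase, had 8575, 9302 and 9184 CPM in LP104-17, against 12061, 10790.1 and 9884 CPM in LP085-Vc, and was not called (log2 fold change -0.27 ± 0.09, adjusted p = 0.059). ERG6 (0.12 ± 0.07), ERG5 (-0.01 ± 0.07) and ERG11 (0.13 ± 0.08), enzymes of later steps, were not called. The 4 partners of cytochromes P450, NCP1, CYB5, CBR1 and DAP1, the 8 genes of heme synthesis and the 12 multidrug transport genes had 0 calls. With the length trend removed, 3 of the 15 ergosterol genes and 2 of the multidrug transport genes were called. PDR5, a drug efflux pump, had 1379, 1017 and 1524 CPM in LP104-17, against 1151, 809 and 926 CPM in LP085-Vc (log2 fold change 0.44 ± 0.15, adjusted p = 0.064), a difference that did not pass the test. A p above the threshold does not show that levels were equal, and the SE beside each value gives its precision.

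The trend of the strain difference with gene length was positive. Across 6131 genes, Spearman's rho of log2 fold change with length was 0.281, given as a description, since genes share libraries. With the genes split by length into 4 classes of equal size, from shortest to longest, the median log2 fold changes were -0.09, -0.04, -0.0042 and 0.11. Called genes were 18 higher and 74 lower in the shortest class, 88 and 108 in the next, 117 and 130 in the one after, and 132 and 41 in the longest. Single pairs of libraries showed trends of the same size without any strain difference, with rho from -0.579 to 0.543 within LP104-17 and from -0.376 to 0.565 within LP085-Vc, beside -0.412 to 0.537 over the 9 pairs of the 2 strains. LP104-17 has 2 of its 3 libraries with long genes high and LP085-Vc has 1 of 3. Within the libraries with long genes high, rho of the strain difference was 0.141, and within those with short genes high it was -0.050. With a term for this class of library, a setting added after seeing the data, rho was 0.044, and 754 genes were called, 622 of them among the 708 in the same direction. The classes were set by each library's own length trend in these data, so a lower rho within them or with the term was favoured in advance. The source of the trend was not tested. Without ribosomal protein and ribosome biogenesis genes rho was 0.301, and its value with GC content in place of length was -0.067. The lysine, sulfate and general stress lists gave 6 higher, 8 lower and 19 lower genes both with the trend left in and with it removed. Other lists moved with the removal. Cytosolic ribosomal proteins went from 17 to 59 higher, oxidative phosphorylation from 7 to 18 lower and iron uptake from 8 to 11 lower. Nitrogen catabolite repression went from 6 to 8 higher, and arginine synthesis from 6 higher and 0 lower to 7 and 1.

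The strain difference at 6 h was not the same as that at 24 h for many genes. The test of the change in the difference (24 h minus 6 h) called 2030 of 6131 genes, 33.1% of those tested, with 1091 (17.8%) higher and 939 (15.3%) lower, and on log2(FPKM + 1) 1292 higher and 545 lower. At 24 h itself 52.6% of tested genes were called, 25.1% higher and 27.4% lower in LP104-17, and the counts at 24 h that follow are to be read beside these shares. Of the 355 genes higher in LP104-17 at 6 h, 286 were also called higher at 24 h, 17 were called lower and 52 were not called. Of the 353 lower at 6 h, 230 were also called lower at 24 h, 43 were called higher and 80 were not called. Sulfate assimilation changed sign: 8 of 10 genes were called lower at 6 h and 6 were called higher and 0 lower at 24 h, and the change in the difference was called for 8, all upward. MET3 had a log2 fold change of -1.80 ± 0.10 at 6 h and 0.71 ± 0.11 at 24 h, with a change of 2.50 ± 0.15 (adjusted p = 9.8e-10). In lysine synthesis the change was called downward for 7 of 9 genes and upward for 0, and at 24 h 5 genes were called higher and 2, LYS14 and LYS5, were called lower. LYS1 had 1.71 ± 0.10 at 6 h and 0.06 ± 0.10 at 24 h (change -1.65 ± 0.14). In ribosome biogenesis the change was called upward for 66 of 70 genes and downward for 0, and NSR1 had 1.13 ± 0.13 at 6 h and 4.39 ± 0.16 at 24 h. Of the genes under nitrogen catabolite repression, the change was called downward for 12 of 24 and upward for 1, and of the general stress genes for 18 of 30 downward and 4 upward.

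**Figure D5:**
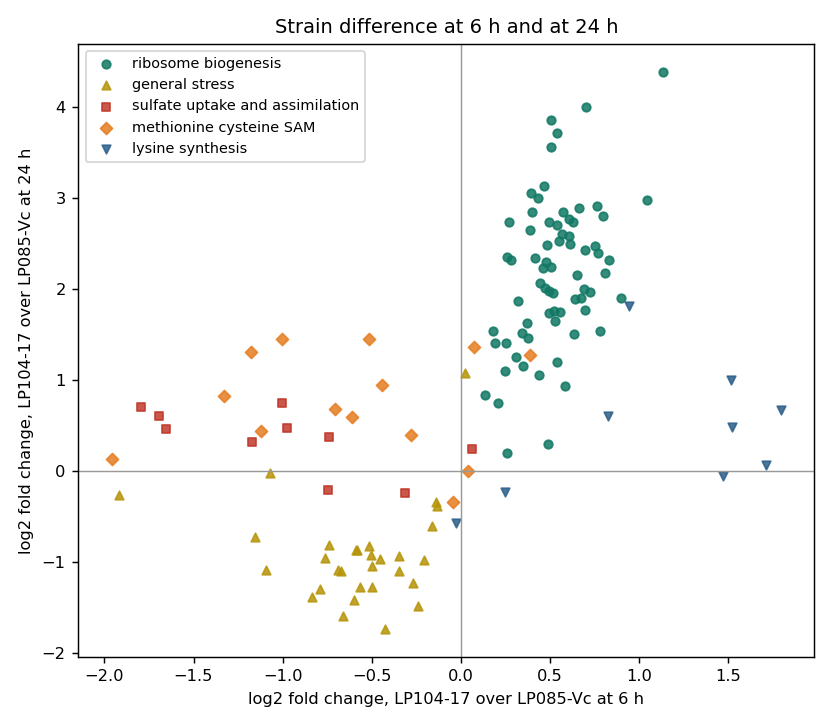
Log2 fold change, LP104-17 over LP085-Vc, at 6 h (x axis) and at 24 h (y axis) for the tested members of 5 gene lists, 1 point per gene. Members of the sulfate list called at 6 h lie left of 0 and mostly above 0 on the y axis (MET3 at -1.80 and 0.71), called lysine genes lie to the right (LYS1 at 1.71 and 0.06), and ribosome biogenesis genes lie above 0 on both axes.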

How the data were processed

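Total RNA of yeast cells was sequenced, with 3 libraries per strain and time. The authors deposited, per the file headers, a raw count and an FPKM value for 6600 genes in each library; the counts are not normalized, and the FPKM column is the authors' count scaled by gene length and a library denominator. In LP085-Vc replicate 3 at 6 h the FPKM column repeats the count header, and its values identify it. The submitters' processing notes name Bowtie2 2.2.5 and build R64. Which tool counted reads, on which annotation and whether by strand, is not given in the sources used here, so reads of overlapping genes and near copies could not be assigned with certainty. Symbols came from RefSeq (R64) for 5917 of 6600 identifiers (89.7%); the deposited length equals the reference gene span, introns included, for 5888.

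Counts were tested with edgeR 4.0.16 (R 4.3.3): a quasi-likelihood fit of all 18 libraries with 6 group means, TMM scaling and 12 residual degrees of freedom, two-sided, after filterByExpr (minimum count 10, minimum total 15) kept 6131 genes and removed 469. Log2 fold changes use a prior count of 0.125. Alternatives were DESeq2 1.42.0, limma 3.58.1 on log2(FPKM + 1) and log2(FPKM + 0.1), no filter, the 6 libraries alone (4 residual degrees of freedom), replicate blocks, a lowess length offset (span 0.5), and each library left out. Where 1 strain had 0 counts, a floor of 3 counts per library was used, and ratios of few counts have 95% exact binomial intervals; both cover counting error only. Total counts were 5.34 to 7.55 in units of 1e6. No pair of replicates agreed within sampling noise (chi-square per degree of freedom 4.19 to 28.0). Near copies were judged by 31-base windows repeated in the genome. Motifs were searched in 300 bases before each start codon.

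The comparison and the gene lists were chosen with earlier results of these data known. Any list gene may be named; outside the lists, names went to the 15 called genes that rose most and the 15 that fell most, if they had a gene name, 10 CPM or more in the higher strain and no overlap between strains. The values of 1 gene are not reported here, and it was left out of its list and of these names.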

Additional observations from a re-analysis of the deposited data

Results flagged for a closer look

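Of the 26 genes drawn by library, 24 had a strain difference at 24 h that differed from the one at 6 h by the test of the change in the difference, beside 33.1% of all tested genes. They were chosen for large differences at 6 h, and the same 6 h values enter the change, which favours a change toward 0. Values are log2, 24 h minus 6 h, LP104-17 over LP085-Vc at each time. The change was downward for 11 genes higher at 6 h: LYS9 (-1.12), CTP1 (-1.45), LYS1 (-1.65), ADE17 (-0.99), LYS4 (-1.03), LYS12 (-0.52), LYS20 (-1.53), DUR12 (-1.06), GCV2 (-0.59), MTD1 (-0.47) and PEX11 (-1.34). It was upward for NSR1 (3.26), which was higher at 6 h. It was also upward for 12 genes lower at 6 h: HXT6 (3.65), HXT7 (2.56), STR3 (2.09), HSP30 (1.66), MET3 (2.50), MET1 (2.30), MET14 (2.12), MET28 (1.82), MTH1 (1.78), SAM3 (1.69), TMA10 (1.11) and MET2 (2.16). RGI1 and MPC3 showed no called change.

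The FPKM values rest on a library denominator that is larger than the sum of the deposited counts. The excess averaged 3.75% ± 0.063 in LP104-17 and 3.30% ± 0.303 in LP085-Vc at 6 h (SD, n = 3 each). What these reads are is not recorded in the files or labels.

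No group here has 4 or more samples, so single outlying libraries were not tested for.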

How the results depend on the processing

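The count of 708 called genes at 6 h was 341 in the fit of the 6 libraries alone. Leaving out 1 library at a time gave 483 to 1206 calls; the count of 1206 came without LP104-17 replicate 2. The other settings gave 654 to 1042 calls (DESeq2 850, with 477 adjusted p not available). For the change in the difference, 2030 calls became 1752 to 2470. The Spearman correlation of fold change with gene length, across genes, was 0.093 to 0.443 with 1 library left out, the extremes without LP085-Vc replicate 2 and without LP104-17 replicate 2. With the trend removed it was 0.020, which the removal itself brings about.

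Replicate numbers did not pair the libraries throughout: deviations of same-numbered libraries correlated at 0.454 for replicate 1 and 0.659 for replicate 2, but at -0.321 for replicate 3. With a replicate block 695 genes were called, 918 with the block in the 6 libraries alone and 939 with the block and the trend removed. LP104-17 replicate 3 correlated best with LP085-Vc replicate 1 (0.592).

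The genes followed were all called members of the gene lists, named above or not, and the genes named for the largest differences. All were thus called in the main fit. Of these 271 genes, 0 reversed in any setting, 159 kept their call in all of them and 112 lost it in at least 1, 102 in the 6-library fit. The 29 genes named for the largest differences kept it throughout, which their choice by size of difference and lack of overlap in these libraries favoured in advance. The settings with a library length class, and the trend removed in 6 libraries, were chosen after seeing the data. Depth limits genes with few counts: CDA2 had 13 counts in LP104-17 and 1 in LP085-Vc.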
